A study of Mus musculus with 6 samples.

Results

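The 10 genes described here act in the conversion of retinol, in the transport of its products inside the cell and in the response of the nucleus to retinoic acid. They are Adh1, Rdh10, Dhrs3 and Retsat (enzymes), Crabp2 and Fabp5 (carriers), Rara and Rarg (retinoic acid receptors) and Rxra and Rxrb (retinoid X receptors). They were chosen by name, with earlier results of these data known, so their counts describe these genes only. Every probe set annotated to exactly 1 of them was taken, which gave 16 of the 45101 probe sets on the array and 10 of 18193 genes. Each array measured RNA of CD4+ T cells with a memory phenotype, taken either from spinal cord (3 arrays) or from the draining inguinal lymph node (3 arrays). The donors were C57BL/6 females, 8 to 10 weeks old. All of the mice had acute clinical experimental autoimmune encephalomyelitis (EAE), an inflammatory disease of the central nervous system induced here with the peptide MOG35-55. No unimmunised mice and no other T cell subset were part of the comparison, and the labels do not give the number of animals behind an array, so the p-values rest on a spread between arrays that may be technical only.

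Retinol, which is vitamin A, is oxidised reversibly to retinal and then irreversibly to retinoic acid, and excess retinol is stored as retinyl esters. Retinoic acid enters the nucleus on a binding protein and activates heterodimers of a retinoic acid receptor (RAR) with a retinoid X receptor (RXR), which sit on DNA and exchange corepressors for coactivators when the ligand binds. In T cells retinoic acid is known for promoting the differentiation of regulatory T cells and for inducing receptors that guide cells to the gut. The title of the series names DGAT1, an enzyme that can esterify retinol, and retinol-dependent regulatory T cells, so the genes below surround the question that the study asked.

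The arrays had median intensities of 68 to 71 and carried the T cell markers of their label. Cd3e, a chain of the T cell receptor complex, read 2153, 1358 and 1679 on spinal cord arrays 1, 2 and 3 and 2124, 1248 and 1405 on lymph node arrays 1, 2 and 3, and Cd4 read 2763 to 6371 and 2063 to 7669. None of the 11 measured T cell markers was called between the tissues by limma, and 1 had an unadjusted p below 0.05. The summed intensity of 20 macrophage, monocyte and microglia markers was 1737, 6330 and 3605 in spinal cord, against 994 to 1078 in lymph node, with 0 called by limma, 16 at an unadjusted p below 0.05 and 9 called higher with the replicate block. Lyz2, a lysozyme of myeloid cells, read 245, 1771 and 563 in spinal cord, against 78 to 81 in lymph node, and Csf1r, the receptor for the macrophage growth factor CSF1, read 237, 1486 and 754 against 57 to 99. The sum over 7 B cell markers was 352 to 390 in spinal cord, against 960 to 1004 in lymph node. Most of that gap came from Cd22 at 98 to 116 against 620 to 750, which was called lower. Ms4a1 and Blk overlapped between the tissues. Pax5 (56, 63 and 74 against 59, 45 and 55) and Fcrla (44, 42 and 46 against 39, 33 and 37, without overlap) had positive log2 differences and were not called. Of the chains of the B cell receptor, Cd79a read 36 to 54 against 40 to 63, and Cd79b read 43, 29 and 39 against 117, 79 and 57, without overlap, and was called lower with the block only (limma adjusted p = 0.134 with tissue alone and 0.0267 with the block). Itgax, an integrin chain of dendritic and other myeloid cells, was the 1 dendritic cell marker called, at 229, 315 and 246 against 97, 79 and 97 (2.88-fold higher, limma adjusted p = 0.0128). Cd22, Cd79b, Ms4a1, Blk, Pax5, Fcrla and Itgax were named after their values were seen. The sum over 11 fibroblast, stromal and endothelial markers was 558 to 611 in spinal cord, against 456 to 791 in lymph node, and Col1a1 (collagen) read 33 to 37 and 29 to 37. The other marker sums were 773 to 875 against 534 to 613 (9 dendritic cell markers), 382 to 1886 against 273 to 395 (7 neutrophil markers) and 3966 to 6591 against 4317 to 6649 (10 neuron and glia markers). Most of the neuron and glia sum was Mbp, at 3397 to 5981 against 3798 to 6110, also named after its values were seen. Of those 10 markers 9 had a positive log2 difference, with a median of 0.15, and none was called.

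1 of the 10 genes, Adh1, was lower in spinal cord T cells, none was called higher, and 9 were not called. Over all genes, 2.54% were called in either direction, 1.13% higher and 1.41% lower, by limma with tissue as the only term and a Benjamini-Hochberg adjusted p below 0.05. The tissue groups did not overlap for 2 of the 10 genes, Adh1 and Dhrs3, against 18.5% of all genes. An unadjusted p below 0.05 was found for 3 of the 10 genes and for 14.3% of all genes. The median log2 difference, spinal cord minus lymph node, was -0.05 over the 10 genes and 0.00 over all genes, with 5 of the 10 positive and 5 negative. Each tissue holds arrays numbered 1, 2 and 3, and arrays of the same number deviated from their tissue means together (correlations of 0.509 to 0.777 across genes), so a fit with that number as a block is given where it changes a call. With the block 2 of the 10 genes were called, Adh1 lower and Dhrs3 higher, against 11.1% of all genes, 3.67% higher and 7.45% lower. At the level of probe sets 1 of the 16 was called, that of Adh1, against 1.19% of all 45037 tested (0.573% higher and 0.613% lower). With the block it was again the 1 called, against 6.2% of all probe sets, 3.74% lower. All 3 same-numbered pairs went one way for 4 of the 10 genes (Adh1, Dhrs3, Crabp2 and Rxra), against 44.9% of all genes.

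**Figure D1:**
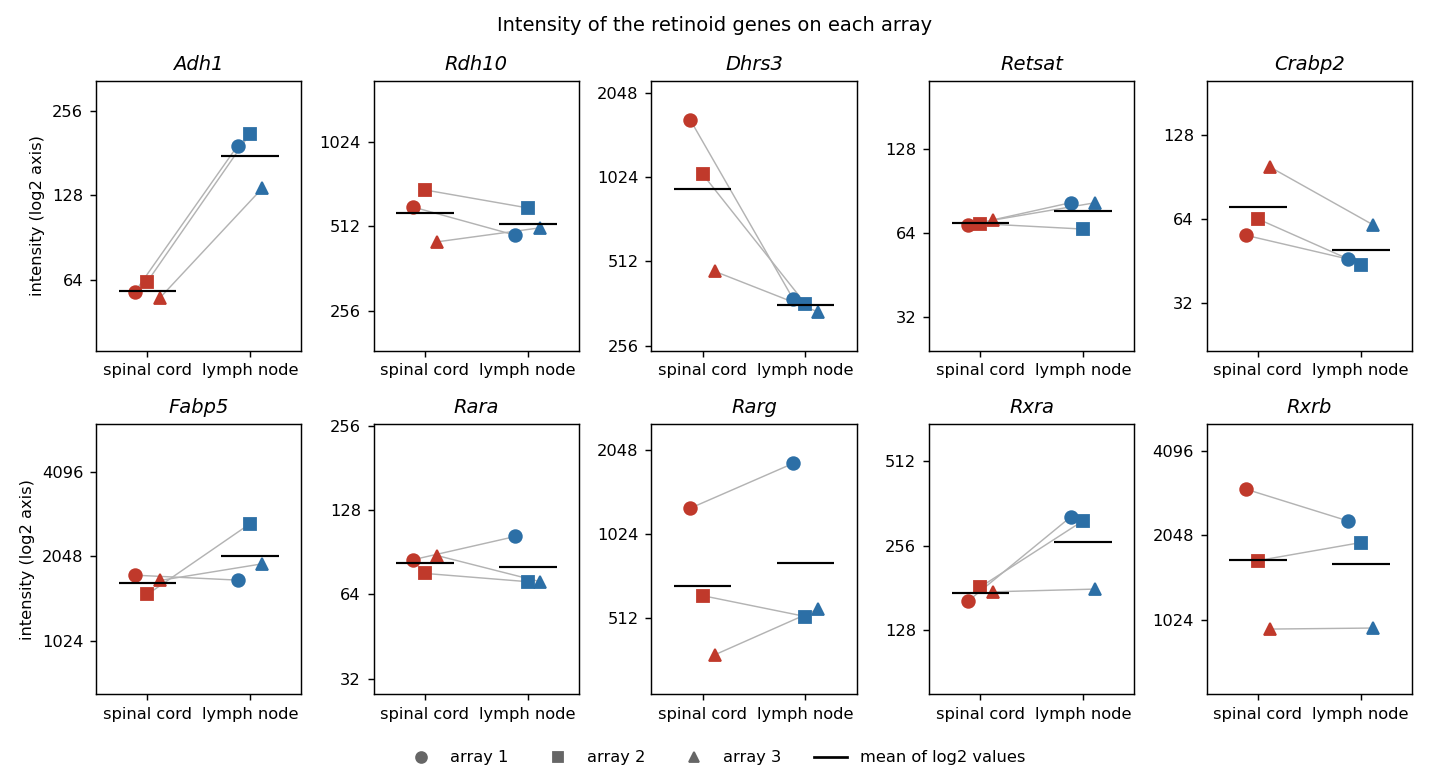
Intensity of each of the 10 genes on each array (log2 axis), 1 panel a gene, with spinal cord to the left of lymph node. Marker shapes give the array number, grey lines join arrays of the same number and black bars are the means of the log2 values. Adh1 and Dhrs3 are the genes whose tissue groups do not overlap.

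Adh1 encodes an alcohol dehydrogenase that oxidises ethanol and retinol. It read 58, 63 and 55 on spinal cord arrays 1, 2 and 3, against 193, 213 and 136 on their lymph node counterparts. All 3 spinal cord values lay close together and below all 3 lymph node values. It was 3.03-fold lower in spinal cord, with a log2 difference of -1.60 (SE 0.19, 95% interval -2.06 to -1.13) from log2 means of 5.87 ± 0.10 and 7.47 ± 0.34 (SD, n = 3 each), and limma gave an adjusted p of 0.0153. Within pairs of the same number it was 3.33-fold, 3.38-fold and 2.47-fold lower. An exact two-sided permutation test over the arrays came to p = 0.1, and a design of 3 against 3 cannot go lower. The call held without lymph node array 3 (limma adjusted p = 0.0169) and was lost without spinal cord array 1 (0.0599), 2 (0.0757) or 3 (0.0667) and without lymph node array 1 (0.0537) or 2 (0.0666), while the log2 difference stayed between -1.79 and -1.47. In bulk samples, fewer cells that express a gene and less RNA of it per cell cannot be told apart. The summed B cell markers were also lower in spinal cord, at 352 to 390 against 960 to 1004, with 1 of 7 called and 2 with the block. Most of that gap came from Cd22, and 2 of the 7 markers had a positive log2 difference. The part of B cells in the Adh1 difference was not tested. Adh1 is also known to be expressed in fibroblasts. The summed fibroblast, stromal and endothelial markers overlapped between the tissues, as did 10 of the 11 markers singly, and their part in the Adh1 difference was not tested.

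Dhrs3 encodes a short-chain reductase that turns retinal back into retinol and so lowers the supply for retinoic acid, and it is itself a gene that retinoic acid induces in several tissues. It read 1637, 1048 and 471 on spinal cord arrays 1, 2 and 3 and 376, 361 and 338 on the lymph node arrays. Every spinal cord value was above every lymph node value, but the spinal cord arrays spread widely while the lymph node arrays were tight (log2 means of 9.86 ± 0.91 and 8.48 ± 0.08, SD, n = 3 each). The log2 difference was 1.38 (SE 0.44, 95% interval 0.32 to 2.44), a ratio of 2.60, and was not called by limma (adjusted p = 0.217). With the replicate block it was called (SE 0.31, limma adjusted p = 0.0458), and within pairs the ratios were 4.35, 2.90 and 1.39. Without spinal cord array 3 the log2 difference was 1.87 and was called with tissue alone (limma adjusted p = 0.0385). In the other 5 fits that left out an array it was 0.97 to 1.41 and was not called (adjusted p from 0.311 to 0.482). The probe-set fit, which adjusts over more features, did not call it with the block either (adjusted p = 0.0766). Dhrs3 was highest on spinal cord array 1, where the macrophage, monocyte and microglia sum was lowest of the 3 spinal cord arrays (1737, against 6330 and 3605 on arrays 2 and 3), and the part of those cells in the Dhrs3 difference was not tested.

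The starts of Adh1 and Dhrs3, the 2 genes called in either fit, are printed here with a start of Rxra. The Rxra windows hold the most exact copies of AGGTCA, a hexamer that RAR and RXR bind. RefSeq (build GRCm38.p6) gives windows of 250 bases before to 50 bases after the start for 7 of the 10 genes, 15 windows in all. The windows shown lie at chr3:138277335-138277634 (Adh1, plus strand), chr4:144892577-144892876 (Dhrs3, plus strand, 1 of 3 starts) and chr2:27709042-27709341 (Rxra, plus strand, 1 of 2 starts), are written 5′ to 3′, and have matches to AGGTCA on either strand in capitals.
Adh1: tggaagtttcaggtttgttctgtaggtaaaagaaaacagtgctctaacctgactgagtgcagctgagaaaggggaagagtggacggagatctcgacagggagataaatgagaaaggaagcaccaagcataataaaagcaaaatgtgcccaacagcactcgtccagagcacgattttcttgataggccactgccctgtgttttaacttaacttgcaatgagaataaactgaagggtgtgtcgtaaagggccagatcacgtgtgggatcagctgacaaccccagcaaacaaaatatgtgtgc
Dhrs3: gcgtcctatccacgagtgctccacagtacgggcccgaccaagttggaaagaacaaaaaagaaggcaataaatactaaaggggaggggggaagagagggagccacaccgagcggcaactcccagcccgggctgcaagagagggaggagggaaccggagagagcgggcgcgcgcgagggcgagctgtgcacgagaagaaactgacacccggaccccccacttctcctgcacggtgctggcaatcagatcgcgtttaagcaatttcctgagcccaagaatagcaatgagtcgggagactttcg
Rxra: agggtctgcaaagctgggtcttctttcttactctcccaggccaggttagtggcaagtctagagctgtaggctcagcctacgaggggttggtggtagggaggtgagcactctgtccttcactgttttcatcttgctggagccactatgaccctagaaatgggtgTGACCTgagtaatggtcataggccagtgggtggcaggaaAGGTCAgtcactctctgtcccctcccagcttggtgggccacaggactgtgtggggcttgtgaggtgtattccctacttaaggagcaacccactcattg
AGGTCA, searched on both strands, was found in 0 of the windows of Adh1 and Dhrs3 and in 3 of the 15 windows, those of 3 genes, against 16.3% of all 32851 windows of the same length. The Rxra window holds it 87 bases upstream of the start on the opposite strand and 48 bases upstream on the strand of the gene. The windows of Rara and Rarg hold it 33 bases downstream and 225 bases upstream of a start. Direct repeats of AGGTCA with 1, 2 or 5 bases between the copies, the arrangements classically linked to RAR and RXR, were in 0 of the 15 windows and in 0.0396%, 0.00913% and 0.00913% of all windows. Only exact copies were searched, so a site that differs from AGGTCA by a base would be missed. At such low shares over all windows, 15 windows cannot show whether these genes hold or lack such elements.

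The other enzymes did not differ between the tissues beyond the spread of the arrays. Rdh10, a membrane-bound retinol dehydrogenase that makes retinal from retinol, read 601, 691 and 451 in spinal cord, against 476, 596 and 506 in lymph node (log2 difference 0.13, SE 0.19, 95% interval -0.34 to 0.59, limma adjusted p = 0.846). Its second probe set read 143, 247 and 259 in spinal cord, against 165, 197 and 354 in lymph node, with a difference of the opposite sign (-0.11, SE 0.36). The groups overlapped on both probe sets. Retsat, which saturates a double bond of retinol and so leads to dihydroretinol, read 68 to 71 in spinal cord, against 66 to 82 in lymph node (log2 difference -0.14, 95% interval -0.45 to 0.18). A second Retsat probe set lay near the low end of the arrays, at 28 to 30 and 28 to 31, where the 20th percentile of all values was an intensity of 25.

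**Figure D2:**
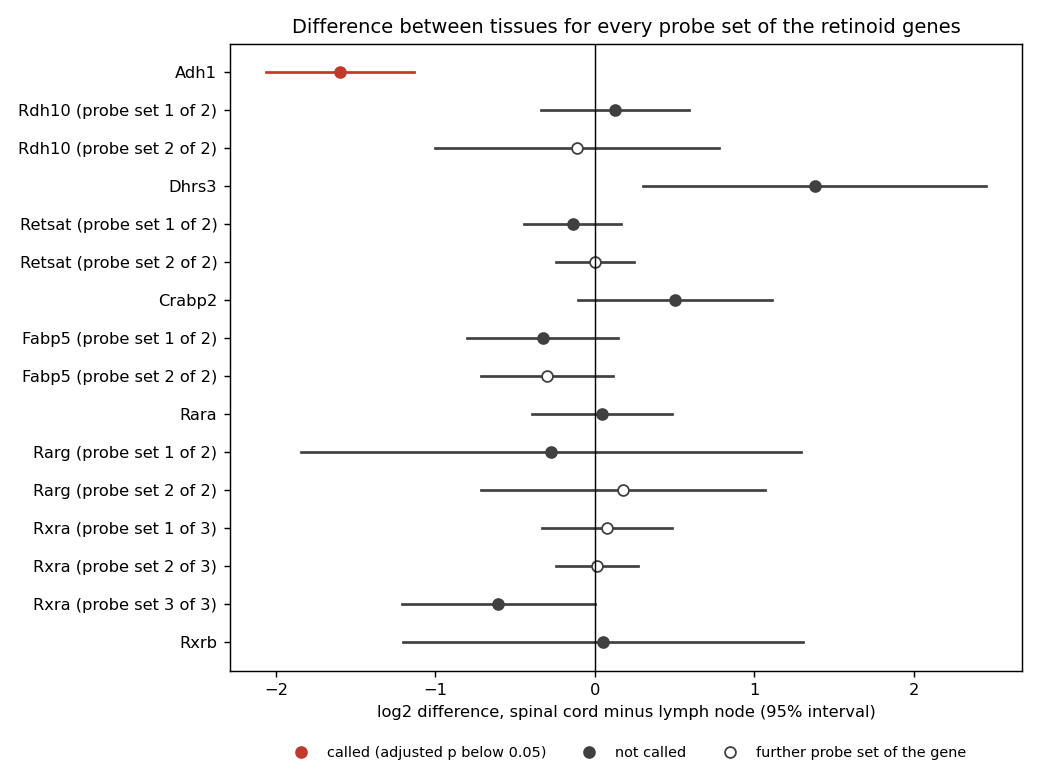
Log2 difference, spinal cord minus lymph node, for each of the 16 probe sets, with its 95% interval from the fit over 45037 probe sets. Filled points are the probe sets that stand for their gene, open points are further probe sets, and red marks the call. Adh1 is the only probe set called, and the 3 Rxra probe sets do not share a direction.

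Neither carrier was called. Crabp2, the binding protein that delivers retinoic acid to RAR in the nucleus, read 56, 64 and 98 in spinal cord, against 46, 44 and 61 in lymph node. Each spinal cord array was above the lymph node array of its number (ratios of 1.22, 1.45 and 1.61), but the groups overlapped. The log2 difference was 0.50 (SE 0.25, 95% interval -0.10 to 1.11, limma adjusted p = 0.452), and the block did not bring it past the threshold (SE 0.13, adjusted p = 0.0636). Fabp5, a fatty acid binding protein that can carry retinoic acid to the receptor PPAR beta/delta instead, read 1753, 1496 and 1678 in spinal cord, against 1683, 2677 and 1925 in lymph node. Its log2 difference was -0.33 (SE 0.20, 95% interval -0.80 to 0.15, limma adjusted p = 0.55), and its second probe set gave -0.30 (SE 0.17). The Fabp5 groups overlapped on the second probe set as well, at 146 to 195 in spinal cord, against 195 to 253 in lymph node, where the value 195 occurred in both.

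The receptors were not called. Rara, the receptor through which retinoic acid acts on most T cell responses, read 85, 76 and 88 in spinal cord, against 103, 71 and 71 in lymph node, and the 95% interval of its log2 difference was -0.40 to 0.48, a ratio between 0.759 and 1.40. Rarg, a receptor of the same family, read 1265, 616 and 379 in spinal cord, against 1828, 519 and 551 in lymph node. The arrays numbered 1 were the highest in both tissues, and the interval of the log2 difference was wide (-0.27, SE 0.64, 95% interval -1.82 to 1.27). Without lymph node array 1 the sign turned (0.32, limma adjusted p = 0.816). A second Rarg probe set read 174, 130 and 87 in spinal cord, against 173, 91 and 87 in lymph node, with a difference of 0.17 (SE 0.36).

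Rxra, an obligate partner of the RARs and of several other nuclear receptors, read 162, 182 and 175 in spinal cord, against 324, 314 and 179 in lymph node on the probe set that stands for the gene. Lymph node arrays 1 and 2 were high and lymph node array 3 lay within the spinal cord range. The log2 difference was -0.61 (SE 0.25, 95% interval -1.21 to -0.0037), with an unadjusted p of 0.049 and a limma adjusted p of 0.347, and the block gave an adjusted p of 0.132. The other Rxra probe sets gave 0.08 (SE 0.17), at 163 to 205 in spinal cord, against 144 to 201 in lymph node, and 0.01 (SE 0.11), at 30 to 34 and 30 to 33. Their tissue groups overlapped, and which transcripts each of the 3 probe sets detects was not tested. Rxrb, a further receptor of the RXR family, read 2995, 1663 and 947 in spinal cord, against 2302, 1929 and 955 in lymph node, a log2 difference of 0.05 (SE 0.51, 95% interval -1.18 to 1.29). Of the 9 genes that were not called, 4 had an interval within 1 on the log2 scale (a change of 2-fold) on both sides and 5 had an interval that reached past it.

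The array number accounted for more of the variation of Rarg and Rxrb than tissue did. Of the variation of log2 intensity over the 6 arrays, the number held 91.5% for Rarg and 95.8% for Rxrb, and tissue held 3.02% and 0.172%. For Adh1 tissue held 93.9% and the number 4.56%, and for Dhrs3 tissue held 63.1% and the number 21.6%. The number held more than tissue for 6 of the 10 genes and for 66.7% of all genes, where the number has 2 degrees of freedom and tissue has 1. Arrays numbered 1 were the highest in both tissues for 3 of the 10 genes (Dhrs3, Rarg and Rxrb) and for 26.2% of all genes. For Rxrb the block narrowed the SE to 0.15, against 0.51 with tissue alone, and the difference was still not called (limma adjusted p = 0.874). For Rarg the block gave an SE of 0.19 and an adjusted p of 0.431. What the shared number stands for is not in the labels.

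**Figure D3:**
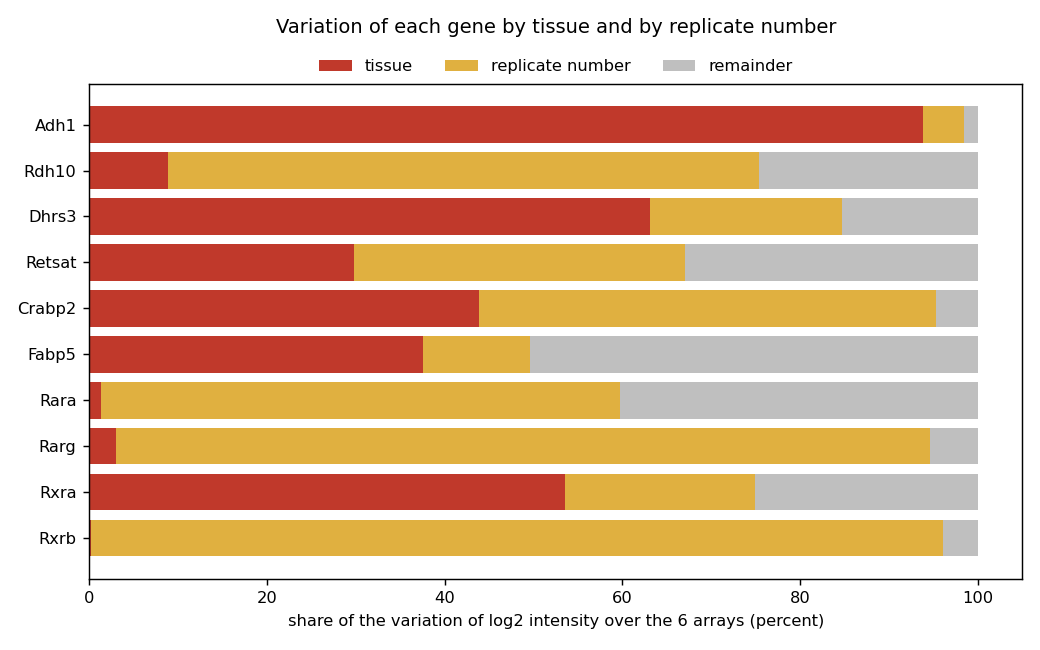
Share of the variation of log2 intensity over the 6 arrays (percent) that goes with tissue, with the replicate number and with neither, for each of the 10 genes. Adh1 and Dhrs3 vary mostly by tissue, at 93.9% and 63.1%, and Rarg and Rxrb mostly by replicate number, at 91.5% and 95.8%.

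The genes around these 10 were taken from lists of retinoid metabolism, receptors, coregulators and response genes. The array measured 78 of the 89 genes on the lists. In spinal cord 5 of them were called higher and 2 lower, or 8.97%, against 2.54% of all genes. The replicate block raised these counts to 8 and 4, or 15.4%, against 11.1% of all genes. The median log2 difference over the 78 genes was 0.07, against 0.00 over all genes. The lists were chosen with earlier results of these data known, so their counts describe these genes only.

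**Figure D4:**
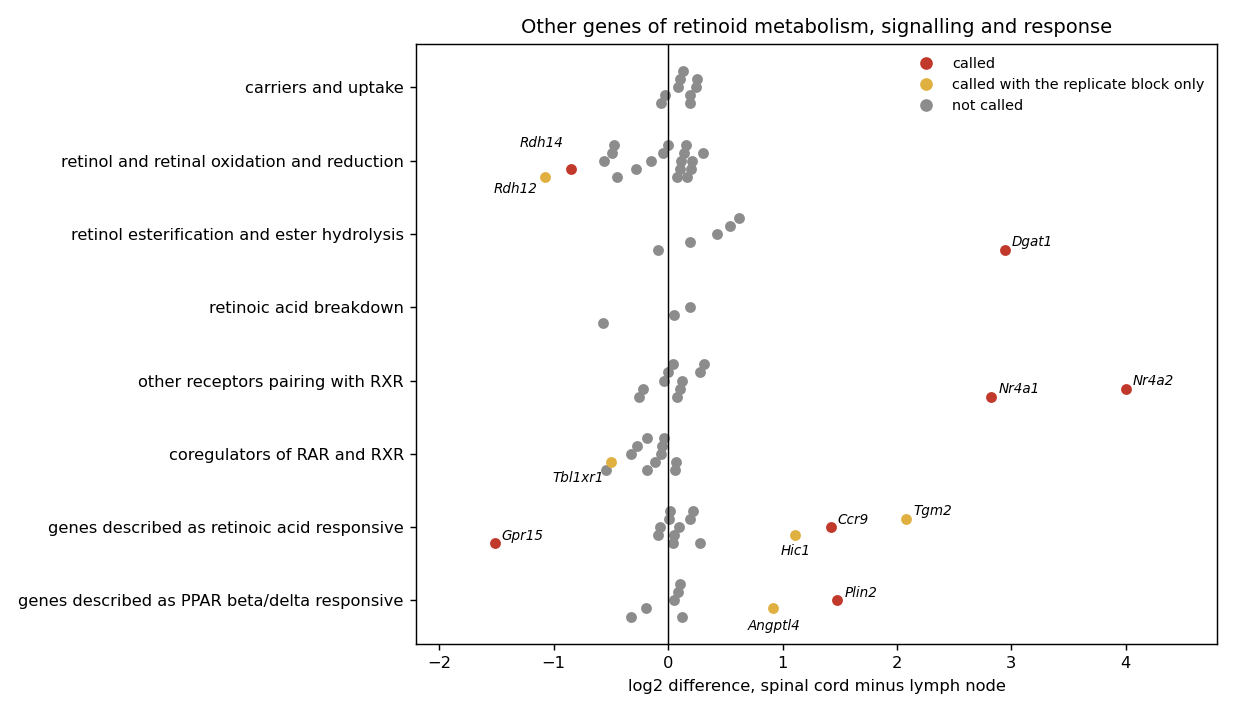
Log2 difference, spinal cord minus lymph node, of the other genes of retinoid metabolism, signalling and response, 1 row a list and 1 point a gene. Red points were called with tissue alone and yellow points with the replicate block only. Most points lie near 0, with Dgat1, Nr4a1, Nr4a2, Ccr9 and Plin2 called to the right and Gpr15 and Rdh14 called to the left.

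Among 19 genes that oxidise or reduce retinol and retinal, Rdh14 was called lower and none higher. Rdh14, a retinol dehydrogenase of the short-chain family, read 584, 538 and 518 in spinal cord, against 856, 1101 and 1015 in lymph node, so that the groups lay well apart. The log2 difference was -0.85 (SE 0.14, limma adjusted p = 0.037), and it was called in 1 of the 6 fits without an array (without lymph node array 1), with adjusted p up to 0.143. In the probe-set fit it was not called (adjusted p = 0.0529), and neither were its other probe sets, which gave -0.37 and 0.06. Rdh12, a retinal reductase known from the eye, read 110, 102 and 71 in spinal cord, against 318, 177 and 133 in lymph node. It was called with the block alone (log2 difference -1.08, adjusted p = 0.229 with tissue alone and 0.019 with the block by limma). Its other probe set read 44, 48 and 40 against 64, 47 and 49, with overlap. That probe set gave a log2 difference of -0.27 and was not called with the block (limma adjusted p = 0.353). The retinaldehyde dehydrogenases, which make retinoic acid, read 18 to 23 in spinal cord, against 16 to 19 in lymph node (Aldh1a1), 22 to 36 and 22 to 24 (Aldh1a2) and 69 to 87 and 61 to 88 (Aldh1a3), and none was called.

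In esterification and ester hydrolysis, Dgat1 was the 1 gene of 6 measured that was called. Dgat1 read 13544, 7536 and 5158 in spinal cord, against 1588, 936 and 780 in lymph node, 7.69-fold higher (limma adjusted p = 0.0274). It was called in 2 of the 6 fits without an array (adjusted p up to 0.134). A second Dgat1 probe set read 3777, 2990 and 964 in spinal cord, against 234, 180 and 68 in lymph node, 15.6-fold higher. In the probe-set fit that probe set was called with the block only (limma adjusted p = 0.0691 with tissue alone and 0.00225 with the block). Lrat, the main retinol-esterifying enzyme, read 16 in spinal cord, against 16 to 18 in lymph node, below the 20th percentile of all values. Uptake and breakdown genes were not called. Stra6, the receptor that takes up retinol from its plasma carrier, read 60 to 72 in spinal cord, against 50 to 58 in lymph node, without overlap (log2 difference 0.25, SE 0.13, adjusted p = 0.469). Cyp26a1 and Cyp26b1, which degrade retinoic acid, read 129 to 163 against 121 to 135 and 88 to 134 against 91 to 121. Rarb and Rxrg, the remaining RAR and RXR, and Ppard, which encodes PPAR beta/delta, read 23 to 27 against 19 to 22, 46 to 51 against 41 to 55 and 76 to 164 against 74 to 134. Nr4a1 and Nr4a2, nuclear receptors that can pair with RXR and that also follow antigen receptor signals, were 7.08-fold and 16.0-fold higher (limma adjusted p = 0.0274 and 0.0167). They were called in 1 and 3 of the 6 fits without an array, with adjusted p up to 0.132 and 0.0962. The Nr4a2 value is that of the brightest of its 6 probe sets, which differed in size. In the probe-set fit it was called, as were those with log2 differences of 3.465 and 3.360 (limma adjusted p = 0.00476 and 0.00781). Those with log2 differences of 0.185, 0.491 and 1.205 were not called (limma adjusted p = 0.784, 0.131 and 0.154), nor were they with the block.

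Of 14 measured genes described as responsive to retinoic acid, 11 had a positive log2 difference. The median over the 14 was 0.07, against 0.00 over all genes. Lists of other kinds varied in this count, with 9 of 10 neuron and glia markers, 9 of 19 retinol and retinal enzymes and 2 of 12 coregulators positive. The share of all genes with a positive difference was not counted. Among the 14, the called genes went in both directions. Ccr9 was called higher and Gpr15 lower, while the block gave 3 higher and 1 lower. Ccr9, the receptor that guides T cells to the small intestine, read 78, 85 and 77 in spinal cord, against 33, 30 and 27 in lymph node, which is 2.67-fold higher (log2 difference 1.42, SE 0.12, limma adjusted p = 0.00777). It was called in all 6 fits without an array, with adjusted p from 0.0211 to 0.0495. Of its 5 probe sets only this one, the brightest, was called. The others read 23 to 35 in spinal cord, against 20 to 29 in lymph node, where the 20th percentile of all values was 25. They gave log2 differences of 0.03 to 0.51. Gpr15, a homing receptor for the large intestine better known as a target of TGF-beta, read 57, 55 and 60 in spinal cord, against 231, 121 and 158 in lymph node (log2 difference -1.52, SE 0.24, limma adjusted p = 0.037), and was called in 1 of the 6 fits, without lymph node array 1, with adjusted p up to 0.144. The probe-set fit did not call it (adjusted p = 0.0563). Itga4 and Itgb7, the chains of the gut-homing integrin, had differences of 0.01 (SE 0.23) and 0.00 (SE 0.31) and were not called. Of the other 4 Itga4 probe sets, a dim one read 49, 94 and 74 in spinal cord, against 22, 50 and 41 in lymph node, and was called with the block only (log2 difference 0.97, limma adjusted p = 0.396 with tissue alone and 0.0167 with the block). The remaining 3 Itga4 probe sets gave -0.09, 0.63 and 0.07 and were not called in either fit.

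Hic1 and Tgm2 were called with the block alone. Hic1, a transcriptional repressor that retinoic acid induces in intestinal T cells, read 668, 465 and 512 in spinal cord, against 323, 196 and 251 in lymph node, with ratios within pairs of 2.07, 2.37 and 2.04 (adjusted p = 0.0789 with tissue alone and 0.005 with the block by limma). Tgm2, a transglutaminase induced by retinoic acid in myeloid cells, read 149, 902 and 410 in spinal cord, against 71, 94 and 109 in lymph node (adjusted p = 0.198, and 0.0307 with the block by limma). In the probe-set fit with the block this probe set was not called (adjusted p = 0.0554), and of the other 5 Tgm2 probe sets 1 was (adjusted p = 0.035). Over the spinal cord arrays Tgm2 was lowest on array 1 and highest on array 2, as was the macrophage, monocyte and microglia sum at 1737, 6330 and 3605, and the part of those cells in the Tgm2 difference was not tested. Of 8 measured genes described as responsive to PPAR beta/delta, the receptor that Fabp5 supplies, Plin2 was called higher and none lower. Plin2, which coats lipid droplets, read 1653, 1268 and 1268 in spinal cord, against 501, 425 and 576 in lymph node (2.79-fold, limma adjusted p = 0.0149), and was called in 3 of the 6 fits without an array, with adjusted p up to 0.0717. Angptl4, a secreted inhibitor of lipoprotein lipase, read 417, 253 and 247 against 183, 142 and 148 and was called with the block alone (adjusted p = 0.138, and 0.0144 with the block by limma).

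The genes whose log2 intensity ran most like that of Adh1 over the 6 arrays were Prkcb, Aff3 and Chdh, with Pearson correlations of 0.998, 0.997 and 0.997. All were also called lower, with log2 differences of -1.47, -3.07 and -2.48 (limma adjusted p = 0.0189, 0.0101 and 0.0188). For Dhrs3 they were Ero1a, Lrrc49 and Plekhb1, with correlations of 0.994, 0.992 and 0.992. Their log2 differences were 0.94, 0.84 and 0.22, and none was called with tissue alone. With the block Ero1a and Lrrc49 were called and Plekhb1 was not (limma adjusted p = 0.0409, 0.0333 and 0.306). With 6 arrays and 18193 genes such values describe the order of the arrays and nothing more.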

How the data were processed

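Total RNA (1 ng per array) went through 2 cycles of amplification before labelling, per the labels' protocols. The deposited values are intensity values per probe set made by the authors with RMA, per the submitters' processing notes. Its version and the build are not given in the sources used here. They were whole numbers from 9 to 39505 on a linear scale, so log2 was taken. No pair of arrays had fewer than 93.5% of its values unequal. The number of arrays limits the precision.

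Samples were grouped by title. Of 45101 probe sets, 34945 had 1 symbol in the platform annotation, 932 several and 9160 none, and 64 were controls. Each of the 18193 genes was represented by its brightest probe set (mean log2), and all 45037 probe sets that were not controls were fitted separately. limma 3.58.1 (lmFit and eBayes, R 4.3.3) was fitted on tissue alone. P-values were two-sided and adjusted over all features (Benjamini-Hochberg), with calls at 0.05. No set test was run. The fit was tested on simulated data. Same-numbered arrays deviated together in all 3 pairs (correlations of 0.576, 0.509 and 0.777), so the number was taken to pair them, a pairing that rests on the data. Alternatives were the block, each array left out, a filter, a floor, other normalizations, variance models, weights, probe set choices and thresholds. Genes named beside the 10 were a fixed set of retinoid genes, up to 5 called per list other than markers, 6 markers and the 3 closest patterns. Members and lists were chosen with earlier results of these data known. Promoter windows came from RefSeq, and sequences were searched and figures drawn with Python 3.11.15 and matplotlib 3.10.9.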

Additional observations from a re-analysis of the deposited data

How the results depend on the processing

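Counts depended most on the block, the threshold, a floor at the 20th percentile and single arrays. For all genes, 206 higher and 257 lower became 668 and 1355 with the replicate block, 77 and 84 with the floor and 56 and 47 at an adjusted p below 0.01, with 49 to 136 higher and 32 to 190 lower when single arrays were left out. Of the 10 retinoid genes, 1 was higher with the block (Dhrs3), 0 were lower with the floor (Adh1, adjusted p = 0.0552) or at 0.01, and 0 to 1 were higher and 0 to 1 lower without single arrays. The 1 probe set called lower became 0 with the floor or at 0.01, and 0 to 1 without single arrays. Of the 78 surrounding genes, 5 higher became 8 with the block, 1 with the floor and 1 at 0.01 (1 to 4 without single arrays). The 2 lower became 4 with the block, 1 with the filter at the 40th percentile, the other variance model, the mean of all probe sets or a log2 difference of at least 1, and 0 with the floor or at 0.01 (0 to 2 without single arrays). Apart from the floor, each alternative that left no array out kept the Adh1 call at a threshold of 0.05. Signs turned for uncalled genes only: Rdh10 on the probe set of largest interquartile range (-0.11), and, leaving out single arrays, Rdh10 (-0.0082 to 0.30), Rara (-0.046 to 0.22), Rarg (-0.74 to 0.32) and Rxrb (-0.37 to 0.46). Causes were not tested, and the block changed no other call of the 10 genes. The filter left out Retsat and Crabp2, so 8 of the 10 genes passed.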

Other observations

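Most of the listed coregulators through which RAR and RXR act had a log2 difference below 0. Their list, too, was chosen with earlier results known. Of 12 measured, none was called by limma with tissue alone, and 1 had an unadjusted p below 0.05, against 14.3% of all genes. A positive log2 difference was found for 2 of the 12, and the median was -0.15, against 0.00 over all genes. Tbl1xr1, a subunit of the nuclear corepressor complex, read 2201, 2756 and 2941 in spinal cord, against 3132, 3817 and 4196 in lymph node. Its tissue groups did not overlap, its ratios within pairs were 0.703, 0.722 and 0.701, and it was called with the replicate block (adjusted p = 0.259 with tissue alone and 0.0401 with the block by limma). In the probe-set fit with the block it was not called (adjusted p = 0.0535), and neither were its other 5 probe sets. The coactivator gene Ep300 and the corepressor-associated deacetylase gene Hdac3, both named after their values were seen, had differences of -0.55 (SE 0.28) and -0.32 (SE 0.15) and were not called.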
